A study of Caenorhabditis elegans with 2 samples.

Results

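The 1168 regions described here are weaker candidate regions for the zinc-finger protein MEP-1 in Caenorhabditis elegans embryos. Both biological replicates repeated them although they fell outside the set called reproducible. The lists in which they were repeated hold peaks and background, so a repeated region is not thereby shown to be bound. The measurement was chromatin immunoprecipitation with sequencing (ChIP-seq) of MEP-1 tagged with eGFP, in whole mixed-stage embryos of mixed sex. The strain, OP70, carries the unc-119(ed3) III mutation and the integrated transgene wgIs70, which adds an eGFP-tagged mep-1. There were 2 biological replicates of this 1 group, with library fragments of 150 to 350 bp, and no second condition. Whole embryos mix many cell types, so a weak region cannot be told apart as weak binding in many cells or stronger binding in few.

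The regions were selected on measured values. All 30000 candidate regions of the pooled reads were ranked by the signal value deposited by the authors. The peaks that passed the authors' irreproducible discovery rate procedure (IDR, which scores how alike regions rank between replicates) were then removed. These IDR peaks were exactly the strongest pooled regions. Of as many next regions, called the band here, 1168 had a summit, the highest point of the region, within 100 bp of a summit in the lists of both replicates. They made up 48.6% of the band (46.6% to 50.6%, exact 95% Clopper-Pearson interval, which covers counting error only). Of the IDR peaks, 83.3% had such a summit in both replicates. Over those peaks the Spearman rank correlation between the replicates was 0.347, so many did not rank alike. At the upper edge, the strongest of the 1168 regions had a pooled signal of 34.18 and the weakest IDR peak 34.21. At the lower edge, the weakest of the 1168 had 20.304 and the first pooled region past the band 20.301. The summit rule also cut through a continuous range: 75 regions had their larger summit distance between 91 and 100 bp, and 76 other regions of the band missed the limit by at most 10 bp. Every one of the 1168 regions was 336 bp wide, the usual width, whereas 221 IDR peaks were narrower.

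MEP-1 works with LET-418/Mi-2, a nucleosome-remodelling ATPase, and the histone deacetylase HDA-1, and is known for keeping germline genes silent in somatic cells of the worm. It is also tied to the SUMO pathway, which attaches a small protein modifier to chromatin factors. ChIP-seq gives where the tagged protein is near DNA and not whether a gene nearby is on or off.

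The sequence under the strongest weaker regions is shown for a window centred on the pooled summit, read 5′ to 3′ on the plus strand of the RefSeq genome of WBcel235 (ce11). Capitals mark exact matches, on either strand, to any of 7 short motifs searched: the GA repeat GAGAGA, the letters CTGCGTC, the GATA type TGATAA, the GC box GGGCGG, the E2F type TTTCCCGC, the TATA type TATAAA and the E-box CACGTG. The first 5 are among the strongest regions in promoters and include windows with none of these letters. The next 3 are the strongest other promoter regions that hold CTGCGTC in the window. The last 2 are the strongest regions outside promoters among those that could be printed, and stronger ones were left out. Regions on one chromosome and those touching an annotated untranslated region were not printed.
promoter of mtr-4 and catp-6, chrIV:9825328-9825528: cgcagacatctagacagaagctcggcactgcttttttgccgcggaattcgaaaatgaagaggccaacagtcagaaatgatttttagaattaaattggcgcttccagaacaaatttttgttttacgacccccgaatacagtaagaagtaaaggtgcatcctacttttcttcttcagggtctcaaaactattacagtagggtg
promoter of ssl-1, chrIII:12713933-12714133: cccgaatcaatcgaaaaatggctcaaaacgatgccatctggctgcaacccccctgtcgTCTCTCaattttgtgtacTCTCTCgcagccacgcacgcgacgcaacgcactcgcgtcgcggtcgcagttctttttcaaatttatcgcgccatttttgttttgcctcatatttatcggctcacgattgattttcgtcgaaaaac
promoter of utp-20, chrII:6536050-6536250: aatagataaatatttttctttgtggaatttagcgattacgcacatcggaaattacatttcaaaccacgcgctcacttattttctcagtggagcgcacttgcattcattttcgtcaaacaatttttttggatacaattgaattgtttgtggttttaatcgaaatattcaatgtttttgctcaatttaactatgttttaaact
promoter of dnj-1 and B0035.15, chrIV:11298619-11298819: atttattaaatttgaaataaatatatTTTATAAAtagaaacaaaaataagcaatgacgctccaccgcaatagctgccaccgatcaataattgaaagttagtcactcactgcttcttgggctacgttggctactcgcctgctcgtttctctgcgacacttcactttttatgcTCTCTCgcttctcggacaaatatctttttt
promoter of ints-5, chrV:18533726-18533926: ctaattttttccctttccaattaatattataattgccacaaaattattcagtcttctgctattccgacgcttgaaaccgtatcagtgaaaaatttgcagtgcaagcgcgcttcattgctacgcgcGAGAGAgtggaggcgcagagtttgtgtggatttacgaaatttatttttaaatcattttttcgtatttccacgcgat
promoter of W08F4.3, inside cdc-37, chrII:580287-580487: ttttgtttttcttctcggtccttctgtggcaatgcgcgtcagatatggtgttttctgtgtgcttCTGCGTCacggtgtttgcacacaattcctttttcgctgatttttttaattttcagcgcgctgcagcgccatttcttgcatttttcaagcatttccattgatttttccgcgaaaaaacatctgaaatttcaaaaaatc
promoter of amx-1, chrIII:3821992-3822192: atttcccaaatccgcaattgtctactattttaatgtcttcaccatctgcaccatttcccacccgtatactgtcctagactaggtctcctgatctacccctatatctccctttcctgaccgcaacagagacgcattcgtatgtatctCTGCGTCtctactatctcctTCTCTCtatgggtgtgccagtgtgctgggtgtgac
promoter of gbas-1, chrII:2504519-2504719: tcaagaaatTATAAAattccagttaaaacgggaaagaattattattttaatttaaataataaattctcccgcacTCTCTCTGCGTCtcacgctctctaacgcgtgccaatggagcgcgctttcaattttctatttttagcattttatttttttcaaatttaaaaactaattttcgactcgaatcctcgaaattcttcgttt
exon of the noncoding RNA ZC404.17, nearest gene dmsr-9, chrV:6796995-6797195: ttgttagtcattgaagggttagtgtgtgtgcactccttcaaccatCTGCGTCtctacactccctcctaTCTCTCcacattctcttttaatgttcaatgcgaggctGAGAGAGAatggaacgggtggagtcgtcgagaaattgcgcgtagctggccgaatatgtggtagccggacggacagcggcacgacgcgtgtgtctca
intron of Y38F1A.1, chrII:12953423-12953623: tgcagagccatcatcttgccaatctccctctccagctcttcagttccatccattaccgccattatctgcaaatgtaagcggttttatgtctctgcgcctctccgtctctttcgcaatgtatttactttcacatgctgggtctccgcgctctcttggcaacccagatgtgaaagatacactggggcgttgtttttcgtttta

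None of the searched motifs stood in the windows of mtr-4, utp-20 and Y38F1A.1. In the gbas-1 window a CTGCGTC match overlapped a GAGAGA match read on the other strand, and in the amx-1 window both motifs stood near each other. The window in the ZC404.17 exon held 1 CTGCGTC match and 3 GAGAGA matches, a pair of which overlapped. Over windows of 300 bases around all summits, the weaker repeated regions resembled the IDR peaks in these letters. GAGAGA was in 48.3% of the weaker repeated regions (45.4% to 51.2%), in 48.2% of the 1236 band regions that were not repeated and in 47.6% of IDR peaks. As a background, it was in 21.8% of the 19973 windows of the same length at protein-coding 5′ ends, from 250 bases before to 50 after the end. CTGCGTC was in 18.8% of the weaker repeated regions (16.5% to 21.1%), 13.6% of the non-repeated regions (11.7% to 15.6%) and 20.1% of IDR peaks, against 4.34% of 5′ end windows.

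Both motifs stood in the same window for 146 weaker repeated regions (12.5%), and in 43 regions their letters overlapped. Outside promoters, the intervals of both motifs did not overlap between the sets. Of the 684 weaker repeated regions outside promoters, 53.5% held GAGAGA (49.7% to 57.3%) and 17.5% held CTGCGTC (14.8% to 20.6%), against 64% (60.5% to 67.4%) and 30.5% (27.2% to 33.8%) of the 775 IDR peaks outside promoters. In promoters, 20.5% of the weaker repeated regions held CTGCGTC (16.9% to 24.3%), against 15.2% of IDR peaks (13.5% to 17.1%). The other 5 motifs were in 2.83% to 22.6% of the weaker repeated regions. TGATAA had 16.1% and TATAAA 22.6%, against 30.2% and 37.9% of 5′ end windows. GGGCGG had 11.4%, TTTCCCGC 2.83% and CACGTG 6.16%, against 7.83%, 1.57% and 5.82%. Most weaker repeated regions lie outside promoters, unlike these windows. Those in promoters held TGATAA in 18.4% and TATAAA in 30.4%. The median GC content was 40.3% in the weaker repeated regions, 41.7% in the non-repeated regions and 40.3% in IDR peaks, against 34.3% in 5′ end windows. Its part in the motif shares was not tested, and a match of letters is not a binding site.

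The weaker repeated regions lay less often in promoters than the IDR peaks and more often in introns and between genes. A summit counted as in a promoter when it was at most 1000 bp before or 200 bp after an annotated protein-coding 5′ end. By this rule 484 of 1168 weaker repeated regions (41.4%) were in promoters, against 1629 IDR peaks (67.8%), a log2 odds of -1.57 (two-sided Fisher's exact test with Benjamini-Hochberg adjustment over 8 tests, adjusted p = 1.5e-49). Introns held 256 weaker repeated regions (21.9%) and 260 IDR peaks (10.8%), a log2 odds of 1.21 (exact test, adjusted p = 2.9e-17). Intergenic sequence held 307 (26.3%) and 355 (14.8%), a log2 odds of 1.04 (exact test, adjusted p = 1.1e-15). Coding sequence was rare in both sets, with 13 weaker repeated regions (1.11%) and 5 IDR peaks (0.208%), a log2 odds of 2.35 (exact test, adjusted p = 0.0013), and with a shorter band this call did not pass (log2 odds 1.58, adjusted p = 0.14). For 3′ UTRs the counts were 9 and 4 (log2 odds 2.13, exact test, adjusted p = 0.021), and for 5′ UTRs 16 and 15 (log2 odds 1.14, adjusted p = 0.044). Regions are not replicates of the experiment, so these p-values describe the placement of summits in this experiment and not the spread between repeats of it.

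Other exons, mostly of noncoding RNA, and the X chromosome did not pass the test. Other exons held 83 weaker repeated regions (7.11%) and 136 IDR peaks (5.66%), a log2 odds of 0.35 (exact test, adjusted p = 0.12). The X chromosome held 218 weaker repeated regions (18.7%, 16.5% to 21.02%) and 428 IDR peaks (17.8%, 16.3% to 19.4%), a log2 odds of 0.08 (exact test, adjusted p = 0.55). Within the weaker repeated regions, 31.7% of those on X were in promoters (25.5% to 38.3%), against 43.7% of those on autosomes (40.5% to 46.9%). The central 50% of each chromosome held 58.4% of the weaker repeated regions and 59.1% of IDR peaks, shares whose intervals overlap.

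**Figure D1:**
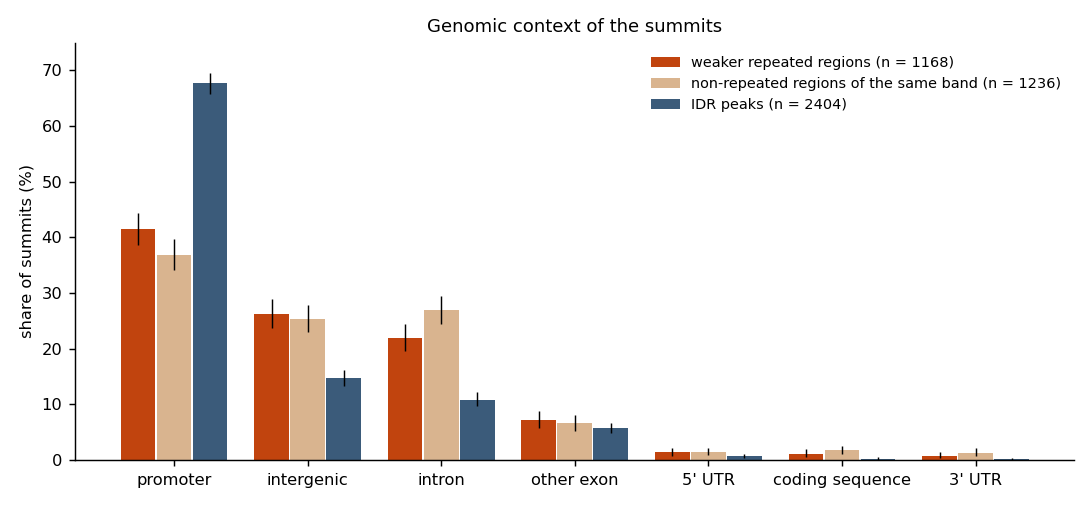
Share of summits in each genomic class, in percent, for the weaker repeated regions, the non-repeated regions of the same band and the IDR peaks, with exact 95% intervals as bars. Promoters hold 41.4% of the weaker repeated regions and 67.8% of IDR peaks, and introns 21.9% and 10.8%. The non-repeated regions have 36.9% in promoters and 26.9% in introns.

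The difference from the IDR peaks followed pooled signal, with a smaller share of promoters at each step from strong to weak. In groups of 601 regions ordered by signal, promoters took 81.2%, 69.9%, 63.1% and 56.9% of the IDR peaks and then 45.6%, 39.4%, 37.9% and 33.4% of the band. The 25192 pooled regions past the band had 22.3% in promoters. The strongest band group (45.6%, 41.6% to 49.7%) and the weakest IDR group (56.9%, 52.8% to 60.9%) had intervals that did not overlap. Set against only the 1168 weakest IDR peaks, a comparison chosen after seeing the data, the promoter share was 41.4% in the weaker repeated regions and 60.02% in those peaks, a log2 odds of -1.08 (Fisher's exact test, adjusted p = 2.5e-18). The share of regions repeated in both replicates had the same order, with 93.5%, 86.9%, 82.4% and 70.4% of the IDR groups and 59.7%, 50.4%, 45.6% and 38.6% of the band groups. Past the band it was 10.4%.

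**Figure D2:**
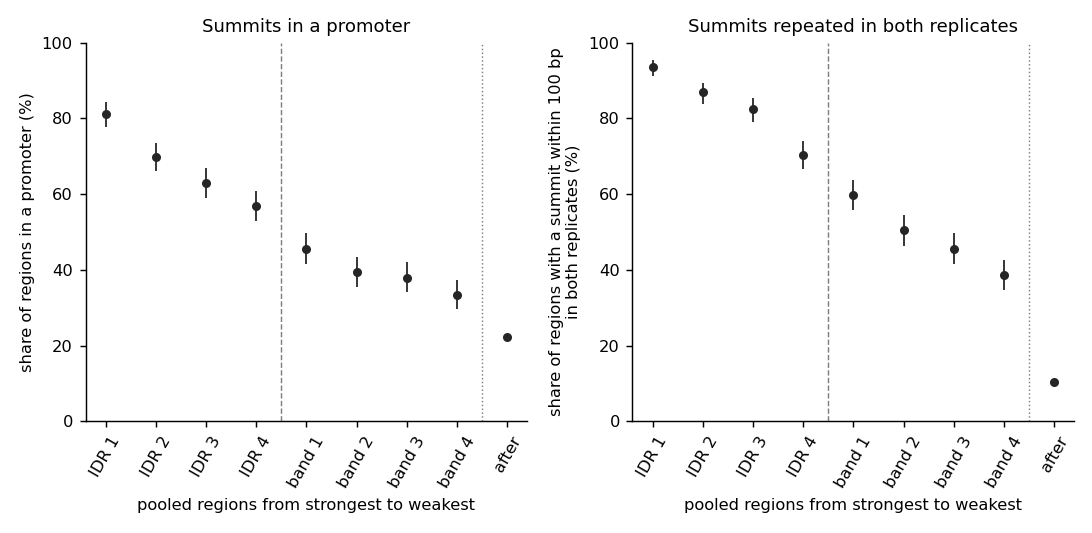
Left, share of pooled regions with a summit in a promoter, and right, share with a summit within 100 bp in both replicates, in percent with exact 95% intervals, for groups of 601 regions from the strongest IDR peaks to the end of the band and for all pooled regions after it. The dashed line is the edge of the IDR set and the dotted line the end of the band. Both shares decline step by step, with promoters at 45.6% just below the edge and 56.9% just above it.

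Set against regions of the same band that were not repeated, the promoter share did not pass the test. Of the weaker repeated regions, 41.4% were in promoters, against 456 of the 1236 non-repeated regions of the band (36.9%), a log2 odds of 0.28 (Fisher's exact test over 8 tests, adjusted p = 0.096). The promoter share passed the exact test with a summit distance of 50 bp (log2 odds 0.38, adjusted p = 0.037) and a longer band (0.36, adjusted p = 4.9e-04). It also passed with a promoter window of 500 bp before to 100 bp after the 5′ end (0.39, exact test, adjusted p = 0.011). Where only a match in replicate 1 was required, whatever replicate 2 held, it passed as well (0.32, exact test, adjusted p = 0.034). It did not pass with a summit distance of 200 bp (exact test, adjusted p = 0.57) or the shorter band (adjusted p = 0.94). Nor did it pass with overlap of at least 50% of both regions (exact test, adjusted p = 0.64). A promoter window of 2000 bp before to 500 bp after the 5′ end did not pass either (exact test, adjusted p = 0.55). The direction was the same in these settings, with smaller log2 odds than the main result. Where only a match in replicate 2 was required, the direction of the promoter share turned (log2 odds -0.23, exact test, adjusted p = 0.65). Promoters then held 38.9% of 2275 matched regions and 42.6% of the unmatched ones. The unmatched regions are few, 94 matched in replicate 1 only and 35 in neither. Intron was the 1 class that passed, with 21.9% of the weaker repeated and 26.9% of the non-repeated regions (log2 odds -0.39, exact test, adjusted p = 0.041). The intron share was not rerun under the alternatives. Coding sequence had 1.11% and 1.70% (log2 odds -0.60, exact test, adjusted p = 0.47). Nearness to stronger peaks did not pass the test: 85 weaker repeated regions (7.28%) and 86 non-repeated ones (6.96%) lay within 1000 bp of an IDR summit (log2 odds 0.07, exact test, adjusted p = 0.93). Where only a match in replicate 2 was required, nearness passed in the other direction (log2 odds -1.20, exact test, adjusted p = 0.034). It was 6.73% of the matched regions against 13.95% of the same few unmatched ones. The repeated regions also had the higher pooled signal, with a median of 25.8 (quartiles 22.9 and 29.6) against 24.2 (21.96 and 27.8) in the non-repeated ones, and the part of signal in these shares was not tested.

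The weaker repeated regions also had a larger median distance from protein-coding 5′ ends than the IDR peaks. The nearest annotated protein-coding 5′ end was a median of 1102.5 bp from the summits of the weaker repeated regions (quartiles 264 and 3128 bp), against 304.5 bp for IDR peaks (142 and 1234 bp). Within 250 bp of such an end were 289 weaker repeated regions (24.7%) and 1055 IDR peaks (43.9%), and farther than 5000 bp were 149 (12.8%) and 125 (5.20%). Most summits of both sets were upstream, 63.3% of the weaker repeated regions and 78.9% of IDR peaks. Promoters shared by genes on opposite strands held 102 of the 484 weaker repeated regions in promoters (21.1%, 17.5% to 24.98%), against 606 of 1629 IDR peaks (37.2%, 34.8% to 39.6%). Most weaker repeated regions were far from any IDR peak, with a median of 10530 bp to the nearest IDR summit and a minimum of 199 bp. Annotated 5′ ends are used as they are, and trans-splicing and operons move many of them away from the site where transcription starts.

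**Figure D3:**
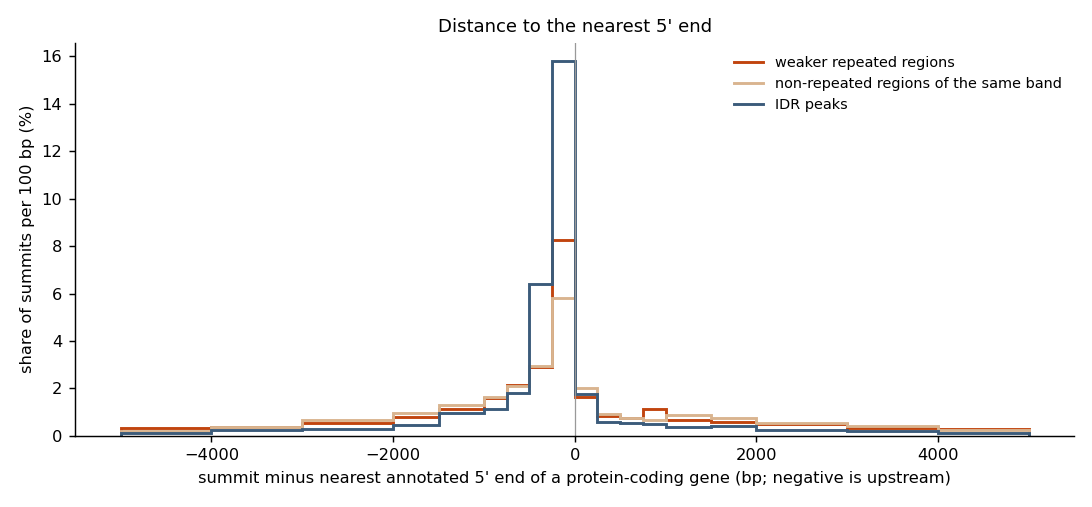
Share of summits per 100 bp, in percent, by distance from the nearest annotated protein-coding 5′ end in bp, with negative values upstream, for the weaker repeated regions, the non-repeated regions of the same band and the IDR peaks. All 3 sets peak in the 250 bp before the 5′ end, and the IDR peaks rise higher there. Summits farther than 5000 bp are not drawn.

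The replicates did not contribute alike to the choice of regions. Of the band, 94.6% had a summit within 100 bp in replicate 2 and 52.5% in replicate 1, so replicate 1 set most of the selection: 1107 regions matched in replicate 2 only, 94 in replicate 1 only and 35 in neither. With the match in replicate 2 alone required, 2275 regions would be kept, and with that in replicate 1 alone 1262. The list of replicate 2 holds 30000 regions and that of replicate 1 holds 25216. A control alignment is listed in the file descriptions for replicate 1 but not for the ce11 list of replicate 2, and the part of this difference in the matches was not tested. The 94 regions matched in replicate 1 only had 43.6% in promoters (33.4% to 54.2%), and the 1107 matched in replicate 2 only had 36.2% (33.4% to 39.1%). IDR peaks matched in 84.5% of cases in replicate 1 and 98.5% in replicate 2.

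The ranks of the 1168 regions in each replicate are given as a description, since the choice on pooled signal and the removal of the strongest regions bear on them. The median distance between the pooled summit and the matched summit was 37 bp in replicate 1 and 6 bp in replicate 2. Matched regions ranked from 306 to 25130 in replicate 1 (median 5115.5) and from 1731 to 29330 in replicate 2 (median 3981.5). Among the strongest regions of each replicate, as many as there are IDR peaks, replicate 1 had 277 of them (23.7%), replicate 2 had 46 (3.94%), and 848 (72.6%) were in neither. The 3 that were in both lay 5722 bp before egl-27, which encodes a protein related to the MTA subunits of deacetylase complexes, and in the promoters of hil-5, a linker histone gene, and gid-1. These 3 were named after their values were seen. The Spearman rank correlation between the replicates was -0.265 over the 1168 regions and 0.347 over the 2002 IDR peaks matched in both. These values are descriptions, and the 1168 regions are a narrow slice chosen on a pooled signal to which both replicates contribute. With ranks counted so that stronger is higher, the Spearman correlation of pooled signal was 0.722 with rank in replicate 2 and 0.209 with rank in replicate 1.

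**Figure D4:**
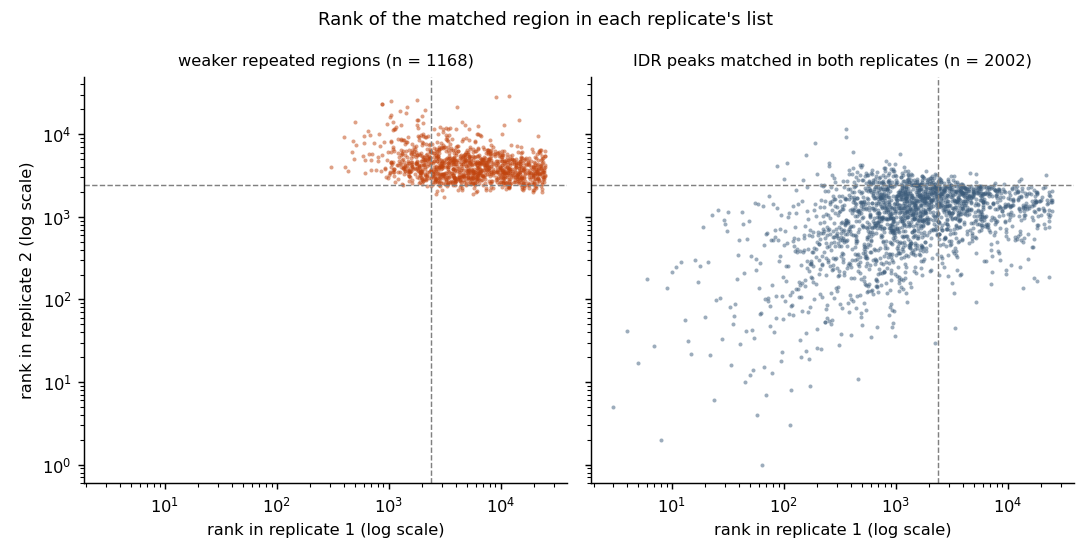
Rank of the matched region in the list of replicate 1 (horizontal) and replicate 2 (vertical), on log scales where 1 is strongest, for the 1168 weaker repeated regions at left and the 2002 IDR peaks matched in both replicates at right; each point is a region and dashed lines mark the rank equal to the number of IDR peaks. The weaker repeated regions spread over ranks 306 to 25130 in replicate 1, and 46 of them are below the dashed line in replicate 2.

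The extremes of this spread were single regions with unlike ranks. The highest in replicate 1 was a region on chromosome I, chrI:8133806-8134141, in the promoter of T28B8.1, with rank 306 and a signal of 21.8 in replicate 1 and rank 3990 and 19.4 in replicate 2. The same promoter also held an IDR peak, with its summit within 1000 bp. The highest in replicate 2 was an intergenic region 8140 bp before nhr-1, a nuclear hormone receptor gene, with rank 1731 in replicate 2 and rank 3135 in replicate 1. The intron region of Y38F1A.1, shown above, was the fifth strongest of all in pooled signal (34.15), yet ranked 23538 in replicate 1 (signal 2.14) and 1987 in replicate 2 (signal 31.9). Promoter shares by rank in replicate 1 had overlapping intervals: 45.1% (39.2% to 51.2%) of the 277 regions among its strongest, and 39.3% (33.9% to 44.9%) of the 318 that ranked past 10000.

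Most of the 12 strongest weaker repeated regions lay outside promoters. The first by pooled signal, 34.18, was the ZC404.17 exon region 2569 bp after the 5′ end of dmsr-9, a gene of the neuropeptide receptor type, with rank 2679 in replicate 1 and 2074 in replicate 2. The second, also 34.18, was 927 bp before unc-73, with ranks 5428 and 2468 in replicates 1 and 2. Of the 12 strongest, 4 were in promoters, those of unc-73, mtr-4 with catp-6, Y39G10AR.11 and acl-3 with ndub-6. Intergenic summits lay 1426 bp before kin-32, a focal adhesion kinase gene, 2895 bp before rgl-1, 1078 bp before pes-7, 1156 bp before C02F12.8 and 3310 bp after the 5′ end of R10E4.1. An intron summit lay 4073 bp before F27D4.12, inside lsy-22.

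The strongest promoter regions at genes without an IDR promoter peak had pooled signals of 34.00 to 34.18, a narrow range set by the choice of regions. The region of mtr-4, an RNA helicase of the nuclear exosome, and catp-6, a P-type ATPase, was 266 bp before mtr-4, with signals of 7.06 in replicate 1 and 23.6 in replicate 2. The region of ssl-1, a chromatin remodelling ATPase of the Swr1 and p400 family, was 533 bp before the gene, with 6.36 and 26.3. The region of utp-20, whose yeast counterpart acts in small ribosomal subunit assembly, was 224 bp before the gene, with 5.14 and 31.955. Replicates use separate scales, so a signal is high or low only within its own list. By rank, utp-20 was 6013 in replicate 1 and 1972 in replicate 2, whereas dnj-1, a DnaJ co-chaperone gene, was 1252 and 3486. The remaining regions by this rule were at K02F2.5, at ints-5, an Integrator subunit gene, and between mrps-18B, for a mitochondrial ribosomal protein, and prp-9, whose yeast counterpart is a splicing factor.

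Most genes with a weaker repeated region in the promoter had no IDR promoter peak, as is so for 17698 of all 19973 protein-coding genes. The choice of regions, which left out the IDR peaks themselves, also bears on this. Promoters of 593 of 19973 protein-coding genes (2.97%) held a weaker repeated region and those of 2275 (11.4%) an IDR peak, where a summit in several promoters counts for each gene. The 2 gene sets shared 30 genes, which are 5.06% of the genes with a weaker repeated region and 1.32% of those with an IDR peak. The other 563 had no IDR promoter peak and are 3.18% of the 17698 such genes, the background for the lists below. Of the 484 promoter regions, 373 were in the promoter of 1 gene and 111 in those of several. A weaker repeated region and an IDR peak stood together in the promoter of lbp-4, a lipid-binding protein gene, with the summits 640 bp apart, and of hil-3, a linker histone gene, with summits 214 bp apart. In 10 genes the promoter held more than 1 weaker repeated region. They included the opposed pair csn-1, a COP9 signalosome subunit gene, and phf-14, the opposed pair usp-14, a ubiquitin protease gene, and vnut-1, and also cdc-7, a replication kinase gene.

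In lists of highly used housekeeping genes, more genes had an IDR peak than a weaker repeated region. The same order holds for all protein-coding genes, with 11.4% and 2.97%, so it is not particular to these lists. Of 78 cytosolic ribosomal protein genes, 1 had a weaker repeated region, rps-6, and 68 had an IDR peak. The region of rps-6 was shared with usp-3, 302 bp before rps-6, with a pooled signal of 33.6. The 33 proteasome subunit genes had 1 with a weaker repeated region, rpn-13, a ubiquitin receptor subunit, and 23 with an IDR peak. The rpn-13 region had rank 496 in replicate 1, with signal 17.95, and rank 13881 in replicate 2, with signal 9.17. The 8 genes of the CCT chaperonin had 0 and 7, the 26 nuclear pore genes 0 and 15, the 40 translation factor genes 2 (eif-1 and eif-2Balpha) and 26, the 32 splicing factor genes 1 (uaf-2, which also has an IDR peak) and 17, and the 20 vacuolar ATPase genes 1 (vha-10) and 7. Of the genes with no IDR promoter peak, a weaker repeated region was at 1 of 10 ribosomal protein genes and 1 of 10 proteasome genes (10% each). It was at 2 of 14 translation factor genes (14.3%) and 1 of 13 vacuolar ATPase genes (7.69%). The nuclear pore list had 0 of 11, the splicing factor list 0 of 15 and the CCT list 0 of 1. Over all such genes the share was 3.18%, and these counts are small and carry no test.

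Other lists of basic cell functions had a higher share of genes with a weaker repeated region than the background of 2.97%. The intervals of mitochondrial ribosomal protein genes (2.36% to 15.9%) and aminoacyl-tRNA synthetase genes (1.98% to 25.02%) included the background. That of heat shock and DnaJ genes (3.26% to 21.4%) lay above it. The counts are small and carry no test. Of 70 mitochondrial ribosomal protein genes, 5 had one (7.14%), among them mrps-18B with pooled signal 34.0, mrpl-18 with 29.8 and mrpl-2 with 29.2, and 27 had an IDR peak. Of 51 heat shock and DnaJ genes, 5 had one (9.80%), which were dnj-1, dnj-22, hsp-70, hsp-25 and hsp-90, and 20 had an IDR peak. Of 32 aminoacyl-tRNA synthetase genes, which charge tRNAs with amino acids, 3 had one (9.38%), and 7 had an IDR peak. Their summits all lay just before the gene, 77 bp for dars-1, 76 bp for hars-1 and 90 bp for fars-3. Set against only the genes with no IDR promoter peak, the shares were 11.6% of 43 mitochondrial ribosomal protein genes, 16.1% of 31 heat shock and DnaJ genes and 12% of 25 synthetase genes, beside 3.18% of all such genes.

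Lists for the processes MEP-1 is known for are short, so a single gene moves their shares and they carry no test. The 10 genes of MEP-1 complexes and the nucleosome remodelling and deacetylase complex held none, and hda-1 and lin-53 had an IDR peak. The nearest weaker repeated region to any of them was 2819 bp before mbd-2, a methyl-CpG-binding-domain protein gene, with pooled signal 33.1. That region was in the promoter of another gene, 316 bp before ari-1.1. For mep-1 itself the nearest was 44113 bp after the 5′ end, for let-418 19116 bp after it, for hda-1 19243 bp before and for chd-3, a second Mi-2 ATPase gene, 19883 bp before. For the remaining 5 genes, dcp-66, hda-3, lin-40, lin-53 and rba-1, it was 26276, 45890, 72179, 31621 and 29968 bp after the 5′ end. Of 9 SUMO pathway genes 2 had a weaker repeated region, both SUMO proteases (22.2%, beside 2.97% of all genes), and 3 an IDR peak. The ulp-2 region was 39 bp before the gene, with pooled signal 28.97, rank 12379 in replicate 1 and rank 2532 in replicate 2. The ulp-4 region was 940 bp before the gene, with pooled signal 26.5 and ranks 6301 and 10084, and its summit was 199 bp from an IDR summit.

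The other germline, chromatin and cell cycle lists had between 0 and 3 genes with a weaker repeated region. Over all protein-coding genes the share was 2.97%, and 11.4% with an IDR peak. The counts carry no test and their intervals are wide, such as 0.21% to 38.5% for 1 of 12 genes. The germline chromatin list had 1 of 12 (8.33%), mes-4, a histone H3 lysine methyltransferase that marks germline genes, and 6 with an IDR peak. The mes-4 region, 269 bp before the gene, had signal 11.8 and rank 1170 in replicate 1, and 9.80 and rank 12295 in replicate 2. The dosage compensation list had 1 of 12 (8.33%), sdc-1, which acts in sex determination and dosage compensation, and 7 with an IDR peak. The 19 DREAM and synMuv genes, which repress germline and cell cycle genes, had 0 and 10, and the 37 P granule and germ cell fate genes 0 and 10. Of 37 small RNA pathway genes 1 had one (2.70%), mut-7, in a promoter shared with eif-2Balpha, and 12 had an IDR peak. Meiosis genes had 2 of 28 (7.14%), syp-2 and syp-4, both for proteins of the synaptonemal complex, and 3 with an IDR peak. The syp-2 region was 42 bp before the gene with ranks 1765 in replicate 1 and 5277 in replicate 2, and the syp-4 region 209 bp before with ranks 4262 and 3795. Replication and cell cycle genes had 2 of 35 (5.71%), cul-1 and cyb-3, and 19 with an IDR peak. Histone genes had 3 of 72 (4.17%), his-71, his-59 and his-37, and 13 with an IDR peak. Of these, his-59 and his-37 had both.

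Chemoreceptor, C-type lectin and neuropeptide genes had intervals under the background of 2.97% with a weaker repeated region, with upper ends of 0.667%, 2.30% and 2.60%. The intervals of nuclear hormone receptors (0.61% to 4.28%), F-box genes (1.08% to 4.84%), homeobox genes and cuticle collagens included it. Those of the tissue lists included it too, and no list was tested. With an IDR peak the background was 11.4%. Chemoreceptor genes had 3 of 1311 (0.229%) with a weaker repeated region and 9 (0.686%) with an IDR peak. All 3 chemoreceptor regions were in promoters shared with another gene, icl-1 for srh-2, fbxc-52 for srh-99 and nhr-213 for str-60. Cuticle collagens had 1 of 156 (col-8) and 3, C-type lectins 1 of 240 (clec-266) and 5, nuclear hormone receptors 5 of 269 and 10, F-box genes 8 of 322 and 11, homeobox genes 1 of 63 (ceh-93) and 5, and neuropeptide genes 0 of 140 and 2. Major sperm protein genes had 0 of 31 in both sets. Embryonic lineage factors had 0 of 35 and 2, and intestine genes 0 of 27 and 1. Muscle genes had 3 of 38 (7.89%) and 4 (10.5%), and neuron and synapse genes 2 of 44 (4.55%) in both sets. The muscle regions were at pat-6, a parvin of muscle attachments, act-4, an actin, and unc-52, the perlecan of the basement membrane. The neuron regions were at glr-1, a glutamate receptor, and rgef-1, a neuronal activator of Ras-family proteins. Of these, pat-6 had the highest pooled signal, 32.1, with ranks 1504 in replicate 1 and 3571 in replicate 2, and act-4 had 28.3 with ranks 10454 and 3058.

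**Figure D5:**
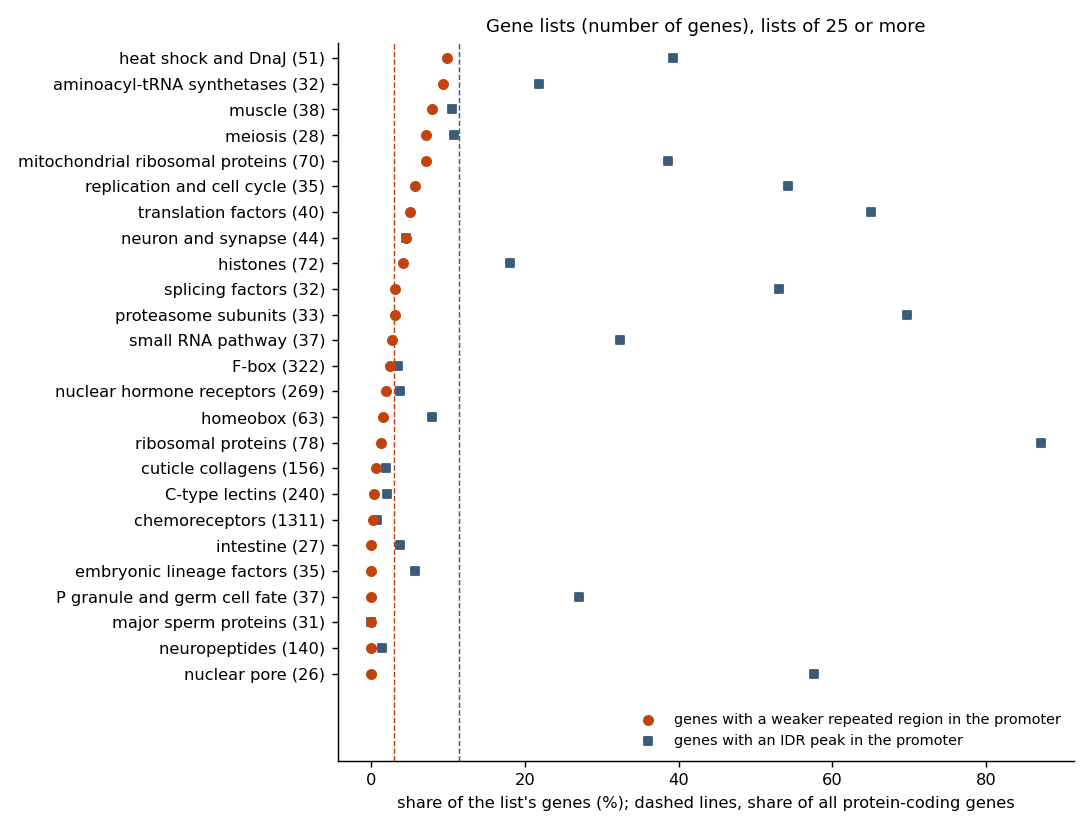
Share of the genes of each list, in percent, with a weaker repeated region (circles) and with an IDR peak (squares) in the promoter, for lists of 25 genes or more with the number of genes in brackets; dashed lines give the shares of all protein-coding genes, 2.97% and 11.4%. Heat shock and DnaJ genes have the highest share with a weaker repeated region among these lists, 9.80%, and ribosomal protein genes have 1.28% beside 87.2% with an IDR peak.

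Fewer small noncoding RNA genes held a weaker repeated region than an IDR peak, and the IDR peaks are the larger set. With a window of 500 bp before the gene through its end, 43 of 612 tRNA genes (7.03%, 5.13% to 9.35%) had a weaker repeated region and 107 (17.5%, 14.6% to 20.7%) an IDR peak. As shares of the regions themselves, 39 weaker repeated regions (3.34%) and 99 IDR peaks (4.12%) were at tRNA genes, beside 25 of the non-repeated regions (2.02%). The snoRNA genes, which guide RNA modification, had 16 of 346 (4.62%) and 66 (19.1%), snRNA genes 2 of 129 and 13, and miRNA genes 7 of 261 (2.68%) and 23 (8.81%). Of the 83 summits in other exons, 58 were in exons of unclassified noncoding RNA alone, 6 in tRNA exons alone and 8 where exons of both overlapped.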

How the data were processed

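Genomic DNA from ChIP-seq of eGFP-tagged MEP-1 in 2 biological replicates was deposited by the authors as lists of regions on the ce10 and ce11 builds, in narrowPeak format. Each region carries the authors' signal value, comparable within a list only, a deposited −log10 q-value with a ceiling of 3.695 that 52 of the regions share, and a summit. The labels describe the lists of each replicate and of the pooled reads as peaks and background. The ce11 set that passed IDR holds 2404 peaks, and the band has as many regions. The names of aligner and peak caller, and the cut-off of IDR, are also not given in the sources used here. Depth is unknown, since no read counts are listed.

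Regions were ranked by signal. Summits were matched within 100 bp, then placed on Ensembl release 115 genes of WBcel235 with promoters first, then UTRs and coding sequence, other exons, introns and the rest. Shares have exact 95% intervals. Context was compared by two-sided Fisher's exact tests, adjusted over 8 tests per comparison, with log2 odds after adding 0.5 to each cell. Python 3.11.15, pandas 2.3.3, scipy 1.17.1 and statsmodels 0.14.6 were used, and the matching steps were tested on simulated data. Alternatives were summit distances of 50 and 200 bp, bands of 1202 and 4808 regions, other promoter windows, overlap of regions, single replicates and the ce10 lists. The members, the 32 gene lists (7 of 382 symbols without a match) and the tests were chosen with earlier results of these data known. Genes named were those nearest the 12 strongest regions, those of the 10 strongest promoter regions without an IDR peak, up to 3 genes of each list, and all genes of MEP-1 complexes. Others were named after their values were seen.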

Additional observations from a re-analysis of the deposited data

How the results depend on the processing

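The lower promoter share of the weaker repeated regions against IDR peaks passed the test under all 11 alternatives (log2 odds -1.84 to -1.08), among them the ones chosen after seeing the data, which took the 1168 weakest IDR peaks or the IDR peaks matched in both replicates. The other values that moved are grouped by setting, with log2 odds for shares. With summits within 50 bp, the regions numbered 676, their genes without an IDR peak 342, the X chromosome share against IDR peaks turned to -0.137, and the promoter share against non-repeated regions passed at 0.379. With the shorter band, the numbers were 662 and 347, coding sequence against IDR peaks no longer passed (1.58, exact test, adjusted p = 0.14), and against non-repeated regions coding sequence turned to 0.0697 and nearness to IDR peaks to -0.352. With the longer band the regions numbered 1946 and the promoter share against non-repeated regions passed at 0.36. Without replicate 1 or without replicate 2, the regions numbered 1262 to 2275 and the genes 613 to 1005, the promoter share against non-repeated regions ran from -0.226 to 0.319, and nearness to IDR peaks from -1.20, which passed (exact test, adjusted p = 0.034) without replicate 1, to 0.263. The promoter share against non-repeated regions passed at 0.393 with a window of 500 bp before to 100 bp after the 5′ end, and coding sequence turned to 0.195 with one of 2000 and 500 bp. That promoter share did not pass with summits within 200 bp, the shorter band or overlap of regions. It also did not pass without replicate 1 or with the window of 2000 and 500 bp. Nearness within 500 bp gave -0.484 and within 2000 bp -0.0045. Against the 1168 weakest IDR peaks the X share turned to -0.0403. The causes were not tested. The ce10 lists gave 1178 regions, 46.9% of their band. No paired analysis was possible because there was only 1 group. Without read numbers, a region missing from replicate 1 cannot be told apart from one below its depth.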
